A study of Homo sapiens with 6 samples.

Results

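The replication-dependent histone genes encode the core histones H2A, H2B, H3 and H4 and the linker histone H1 that package newly made DNA. They were taken as every row of the deposited gene table whose gene name is a clustered histone name in the present or the older nomenclature, with names that end in P, P1 or P2 (pseudogenes) left out, and the rule used no measured value. It found 58 genes of 31348 in the table, namely 5 of H1, 14 of H2A, 15 of H2B, 12 of H3 and 12 of H4. On GRCh38, 47 of them lie on chromosome 6 (chr6:26017032-27893891), 10 on chromosome 1 (chr1:149782689-149887411) and 1, H4-16, on chromosome 12.

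RNA was sequenced from TPC1, a human papillary thyroid carcinoma cell line with a RET/PTC rearrangement, 36 h after transfection. There were 3 libraries of cells given a control siRNA (siControl) and 3 of cells given an siRNA against SRPX2 (siSRPX2, the study's siSRPX2-1), and the study calls the 3 of each group biological repeats. Each group rests on 1 siRNA sequence in 1 cell line, and the genotype label reads WT in both. The labels of all 6 libraries also name adipogenic differentiation as treatment, day 2 as time and DMEM as medium, which differs from the study's methods. The groups were compared to find genes that depend on SRPX2, a secreted protein.

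Most mRNAs end in a poly(A) tail, whereas a replication-dependent histone mRNA ends a few bases past a short stem-loop that the stem-loop binding protein SLBP and the U7 small nuclear RNP recognise. These mRNAs accumulate in S phase, when DNA is copied, and are degraded when copying stops. Polyadenylated forms that read past the stem-loop are also known for some of the genes, and a library prepared from poly(A) RNA sees mainly those.

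The stem-loop element was looked for in the GENCODE 29 transcripts of the 56 genes that this release holds (H3C2 and H3C3 are absent from it). Of these, 29 genes had the element in a transcript, against 92 of all 58676 genes, or 0.157%. The 6 forms found are given because histone mRNAs are known to end just past this element and because transcript models that run past it matter for what was counted. Capitals mark the arms of the stem and lower case the loop.
The form of 15 H2A, H2B and H3 genes, among them H2AC6, H2AC18, H2AC19, H2BC9 and H3C10: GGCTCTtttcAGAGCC
The form of 5 H4 genes, among them H4C11: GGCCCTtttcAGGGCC
The form of H2BC4, H2BC5, H2BC7 and H3C8: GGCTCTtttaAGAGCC
The form of H4C9, H4C14 and H4C15: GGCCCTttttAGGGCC
The form of H3C6: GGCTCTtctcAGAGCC
The form of H2AC11: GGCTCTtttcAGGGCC
Both H4 forms have the same arms, and 3 of the other 4 share another pair of arms. In 21 genes an annotated transcript ran more than 100 bases past the element, by 1128 bases in H2AC6, 1862 in H3C6 and 1640 in H2BC9. For H2BC12, H1-2, H4C12, H2AC20 and H2AC17 no annotated transcript of that release contained the element. Their transcripts there have 381, 642, 312, 390 and 393 bases, while the deposited gene models span 495, 731, 387, 494 and 487 bases. An element past the end of such a transcript would be missed. The count of 29 thus describes annotated transcripts and does not show that the other genes lack the element.

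The histone genes were at low levels in every library. Reads assigned to the 58 genes numbered 1795, 2196 and 3931 in siControl 1 to 3 and 2480, 2143 and 4184 in siSRPX2 1 to 3, of 63824315 to 75828542 reads in all. That was between 0.00281% (95% Wilson interval 0.00269 to 0.00295) in siControl 1 and 0.00611% (0.00593 to 0.00630) in siSRPX2 3, and such intervals cover counting error only. Both libraries numbered 3 lay above the other 4. The median level of the 58 genes was 0.184 FPKM (fragments scaled to transcript length and library depth), against 4.90 FPKM for all genes past the filter used below.

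A mean of at least 0.5 FPKM over the 6 libraries was required for a test, and 15 histone genes of the 13317 genes that met it could be tested: 1 of H1, 5 of H2A, 4 of H2B, 2 of H3 and 3 of H4. The lowest inside was H3C10 at 0.602 FPKM and the highest outside were H4C15 at 0.472 and H4C14 at 0.469. The other 43 genes together held 15.1% of the summed histone FPKM, and 27 of them had 0 reads in at least 1 library, where 3 reads, the limit that a count of 0 allows, equal 0.0397 to 0.0486 CPM (reads scaled to a common TMM library total). Their most abundant H1 was H1-4 at 0.0970 FPKM, and 10 of the 12 H3 genes were among them. All 58 had a read somewhere and 31 had reads in all 6 libraries.

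H2BC12 (older name HIST1H2BK), an H2B gene, was the most abundant at a mean of 9.98 ± 5.84 FPKM (SD, n = 6), or 23.7% of the summed histone FPKM. H1-2, the only linker histone gene past the filter, followed at 5.93 ± 1.81 FPKM. H2AC18 and H2AC19, a pair of H2A genes on chromosome 1, stood at 2.94 and 2.85 FPKM, H2AC6 at 2.76, H2BC5 at 2.07, and the H4 genes H4C12 and H4C11 at 1.94 and 1.73. H2BC4 (1.18 FPKM), H4C9 (0.863), H2AC20 (0.829), H3C6 (0.790), H2AC17 (0.675), H2BC9 (0.610) and H3C10 closed the order. Of the 14 steps between neighbours in this order, only that from H1-2 (4.40 to 8.54 FPKM) to H2AC18 (1.96 to 3.68 FPKM) separated ranges that do not overlap. Even H2BC12 was exceeded by 28.4% of the genes past the filter.

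**Figure D1:**
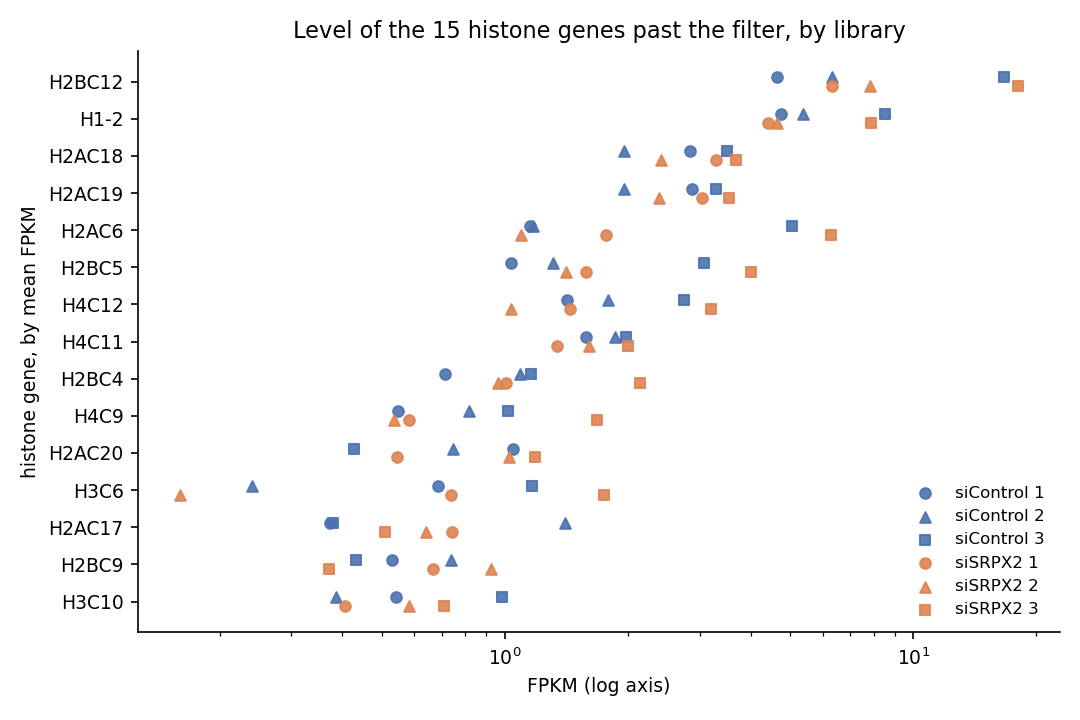
FPKM on a log axis of the 15 histone genes past the filter in each of the 6 libraries, ordered by mean; colour gives the siRNA and shape the replicate number. The squares, number 3, lie to the right for H2BC12 (16.7 and 18.04 FPKM against 4.63 to 7.82 in the other 4 libraries), H2AC6 and H2BC5, and the triangles, number 2, lie to the left for H3C6 (0.240 and 0.160 FPKM).

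By type, H2B genes made up 34.6 ± 4.99% (SD, n = 6) of the summed histone FPKM, H2A 28.3 ± 2.72%, H4 15.3 ± 1.74%, H1 14.9 ± 1.84% and H3 6.91 ± 1.26%. Chromatin holds the 4 core histones in equal numbers, so these RNA shares were uneven. Without H2BC12 the H2B share was 15.9% and that of H2A 36.4%. The sources do not say how RNA was selected for the libraries. Of 27 listed RNAs without a poly(A) tail 21 were in the table and 6 passed the filter. The highest were RN7SL1, the RNA of the signal recognition particle, at 4.797 to 9.742 FPKM and SNORD17, a small nucleolar RNA, at 3.52 to 11.6 FPKM, while RN7SK, the scaffold RNA of a transcription regulator, was at 0.15 to 0.75 FPKM, and RNU7-1, the U7 RNA, was at no more than 0.002 FPKM. The part of RNA selection in the histone levels was not tested.

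The less abundant genes had no single order across the libraries. H4C12 was at 1.42, 1.79 and 2.75 FPKM in siControl 1 to 3 and at 1.45, 1.03 and 3.20 FPKM in siSRPX2 1 to 3. H2BC4 was at 0.714, 1.09 and 1.16 FPKM and at 1.01, 0.961 and 2.15 FPKM. For both, siSRPX2 3 was the highest library. H4C9 had its highest value in the same library, 1.68 FPKM against 0.535 to 1.02 in the other 5. H2AC20 stood at 1.05, 0.746 and 0.428 FPKM in siControl and 0.546, 1.03 and 1.18 FPKM in siSRPX2, so numbers 1 and 3 had opposite orders in the groups. H2AC17 was highest in siControl 2, at 1.40 FPKM against 0.372 to 0.743 in the other 5, whereas H3C10 was lowest there, at 0.386 FPKM against 0.407 to 0.985.

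Where reads could be shared between copies, levels are uncertain. Every stretch of 50 bases of the H2AC18 transcript also occurs in H2AC19, and the reads of the 2 were near each other in each library (113, 88, 154, 151, 106 and 153 against 117, 90, 148, 144, 108 and 151). Of the H4C12 stretches 100% occur in H4C11, and of those of H4C11 81.2% occur in H4C12. Their reads were less alike, such as 94 against 59 in siSRPX2 3. H4C14 and H4C15 share every stretch, as do H3C14 and H3C15. For H2BC12 74.1% of the stretches occur in another gene, and for H2AC17 86.3% occur in H3C12, which it overlaps on the same strand. For H1-2, H2BC9 and H3C10 no stretch was shared, and for H2AC6, H3C6 and H2BC5 it was 0.432%, 1.29% and 5.95%. How the authors' counting treated shared reads is not given in the sources used here.

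Before the comparison of siRNAs, SRPX2 itself was read. It stood at 0.448, 0.545 and 0.511 FPKM in siControl and at 0.219, 0.257 and 0.462 FPKM in siSRPX2, so siSRPX2 3 lay within the range of the control libraries while the other 2 lay below it. At these levels SRPX2 did not pass the filter, and without a filter its log2 fold change was -0.71 (SE 0.33) and was not called (edgeR quasi-likelihood test with Benjamini-Hochberg adjustment). Libraries matched a thyroid epithelial line in part: PAX8 (76.9 to 103 FPKM), FOXE1, KRT8 and KRT18 were expressed, while 4 of 13 listed thyroid and epithelial markers were not in the table and TG, CDH1, EPCAM and KRT19 were near 0. Their summed FPKM ran from 206 to 251 in siControl and from 209 to 292 in siSRPX2. Of 18 markers of other cells 12 were in the table and 3 passed the filter, CD68, PPARG and CALCA, with sums of 9.83 to 16.3 and 12.2 to 17.6 FPKM.

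No histone gene changed with the siRNA by this test. None of the 15 tested genes was called at an adjusted p under 0.05, as was none of all genes (0% of 13317), and none of the 15 had an unadjusted p under 0.05. DESeq2 called 3 genes, none of the 15. With the replicate number as a block, edgeR called 6 genes (0.0451%) and DESeq2 89 (0.668%), none a histone gene. Log2 fold changes ran from -0.21 for H3C10 to 0.45 for H2BC4 (SE 0.41, p 0.317), with 10 above and 5 below 0 and a median of 0.18, against -0.01 over all genes tested. That median of the 15 became -0.32 without siSRPX2 3, -0.08 without siControl 2 and 0.01 without siControl 1. These fits had no block, and each leaves a replicate number without its pair. With the block and all libraries the median was 0.13.

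The groups overlapped in CPM for all 15 genes, while 3.24% of all genes tested did not overlap. H2BC12 was at 2.69, 3.37 and 9.48 CPM in siControl and at 3.61, 4.2002 and 9.79 CPM in siSRPX2. It was higher with siSRPX2 within each number, by 1.34-, 1.24- and 1.03-fold, yet number 3 of either siRNA lay far above numbers 1 and 2 of both. H1-2 was lower with siSRPX2 within each number, at 0.911, 0.870 and 0.885 of siControl, and its log2 fold change with the block was -0.17 (SE 0.16, adjusted p 0.767). H2BC12, H2AC18, H2AC19 and H2BC5 were the 4 genes above siControl in 3 of 3 pairs, and H1-2 and H4C11 the 2 below it in 3 of 3. H2AC18 and H2AC19 share most of their sequence, so the reads of the 2 may not be separate. The share of all genes tested that kept the same direction in 3 of 3 pairs was not counted. These counts are thus not read as a result about histone genes. In a bulk sample, the share of cells in S phase and the histone RNA per cell cannot be told apart.

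Summed over the 58 genes, histone RNA was 29.1, 29.1 and 56.4 CPM in siControl and 34.2, 29.04 and 60.8 CPM in siSRPX2, or 38.2 ± 15.8 and 41.3 ± 17.1 (SD, n = 3). The ratio of group means was 1.08, and within the pairs it was 1.17, 0.999 and 1.08. The SD within a group, which holds the difference between replicate numbers, was thus far larger than the difference between groups. Without siControl 3 the ratio was 1.42 and without siSRPX2 3 it was 0.828. Either omission leaves a library numbered 3 without its pair, so these ratios also carry the difference between numbers. By type the ratio was 0.860 for H1, 1.15 for H2A, 1.14 for H2B, 1.14 for H3 and 1.03 for H4.

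**Figure D2:**
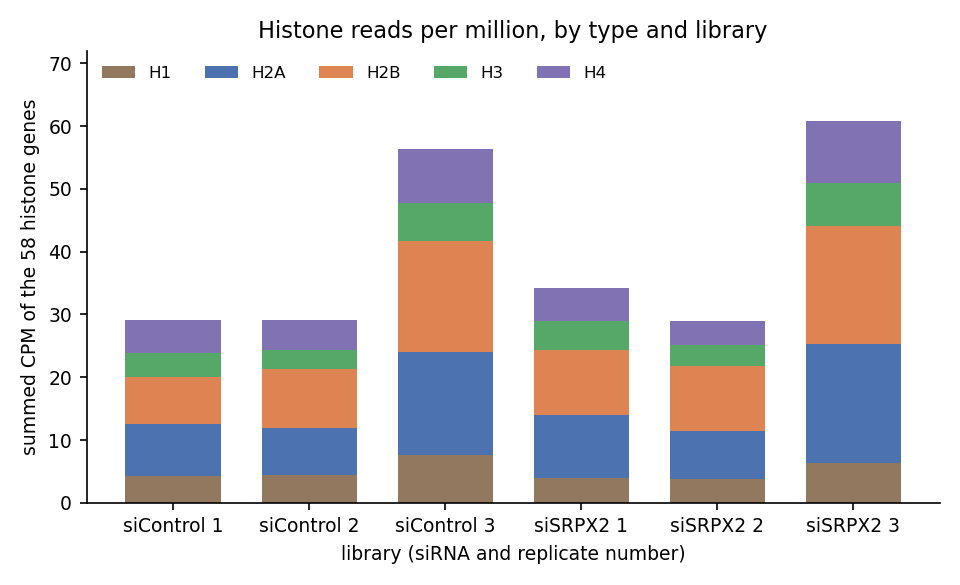
Summed CPM of the 58 histone genes in each library, as bars starting at 0 and stacked by histone type (no error bar, 1 value a library). The bars of siControl 3 and siSRPX2 3 reach 56.4 and 60.8 CPM, and the other 4 lie between 29.04 and 34.2.

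The larger differences lay between replicate numbers, which the labels give from 1 to 3 in both groups. No source says what a number marks, and each holds 1 library per siRNA, so 2 libraries. In number 3 histone RNA was 1.94 times that of number 1 with siControl and 1.78 times with siSRPX2. Each type was higher: by 1.79 and 1.59 times for H1, 2.00 and 1.91 for H2A, 2.33 and 1.80 for H2B, 1.59 and 1.48 for H3 and 1.65 and 1.91 for H4. The 39 other S-phase genes listed, such as PCNA, the sliding clamp of DNA polymerase, RRM2, a subunit of ribonucleotide reductase, and TYMS, thymidylate synthase, summed to 1.12 and 0.973 times number 1 in the same libraries.

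In the edgeR fit of number 3 against number 1, 4 of the 15 genes were called, all higher, where 16.1% of all genes were called and 7.3% were called higher (8.81% lower). The 4 were H2AC6, H2BC12, H2BC5 and H1-2. Values lay above 0 for 12 of the 15 and below it for 3; their median was 0.79 on the log2 scale, against 0.00 over all genes tested, and 12 were higher in number 3 than in number 1 under both siRNAs.

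H2AC6 (HIST1H2AC) was at 2.25, 2.104 and 9.67 CPM in siControl 1 to 3 and at 3.43, 1.99 and 11.5 CPM in siSRPX2 1 to 3. The libraries numbered 3 thus lay above the other 4 with no overlap, and the log2 fold change was 1.91 (SE 0.23, adjusted p 0.0021). H2BC12, whose values are above, rose by 1.63 (SE 0.20, adjusted p 0.0023). Both were called under each of 15 alternatives, at adjusted p of up to 0.0338 and 0.0298.

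H2BC5 (HIST1H2BD), a further H2B gene, was at 1.07, 1.24 and 3.09 CPM in siControl and 1.60, 1.34 and 3.82 CPM in siSRPX2, and its log2 fold change was 1.38 (SE 0.30, adjusted p 0.0201). H1-2 was at 4.07, 4.22 and 7.15 CPM and at 3.71, 3.67 and 6.32 CPM, a log2 fold change of 0.79 (SE 0.20, adjusted p 0.0345). In both genes number 3 stood clear of numbers 1 and 2 in either group. The call was lost for H2BC5 without siControl 1 (adjusted p 0.124), siControl 3 (0.108) or siSRPX2 3 (0.0807). It was lost for H1-2 without siControl 1 (0.157), siControl 3 (0.191), siSRPX2 1 (0.0956) or siSRPX2 3 (0.127), and for both without a filter (0.103 and 0.111).

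The other 54 histone genes together were at 1.42 and 1.35 times number 1, against 2.91 and 2.55 times for the 4 called genes. The 4 were picked by their call in this same comparison, so their larger sum follows from the choice. The values of the other 54 show that the rise was not held by the 4 alone. H4C9 (log2 fold change 1.18), H4C12 (0.9988, SE 0.40, adjusted p 0.126), H3C6 (0.97), H2BC4 (0.85), H3C10 (0.78) and H4C11 (0.39) had values above 0 that missed the threshold, though H4C9 and H3C6 were called without either library numbered 2 and H4C12 was called with limma-trend on log2(FPKM + 1). H2AC18 and H2AC19 were at 0.19 and 0.15, and H2BC9 at -0.61 (SE 0.34, adjusted p 0.256), with 1.28, 1.64 and 1.03 CPM in siControl and 1.60, 2.07 and 0.843 CPM in siSRPX2. H2BC9 was thus lowest in number 3 of either group, the opposite order to H2BC12.

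H1-2, H2AC6 and H2BC5 lie near each other in the cluster on chromosome 6 (chr6:26055740-26171349) and H2BC12 lies apart from them (chr6:27146361-27146855). The 120 bases before a start site of each are printed here because they moved together. They are from RefSeq, GRCh38.p14, 5′ to 3′ on the gene's strand. Capitals mark matches on either strand to CCAAT, to TATAAA and to the octamer ATTTGCAT, which H2B promoters are known for.
H2BC12, chr6:27146859-27146978, minus strand: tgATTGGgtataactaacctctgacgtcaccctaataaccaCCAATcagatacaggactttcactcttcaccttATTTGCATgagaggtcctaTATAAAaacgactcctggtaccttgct
H2BC5, chr6:26158002-26158121, plus strand: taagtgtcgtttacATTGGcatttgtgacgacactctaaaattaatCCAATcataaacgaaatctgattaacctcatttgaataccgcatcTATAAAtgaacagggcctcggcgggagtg
H2AC6, chr6:26124052-26124171, plus strand: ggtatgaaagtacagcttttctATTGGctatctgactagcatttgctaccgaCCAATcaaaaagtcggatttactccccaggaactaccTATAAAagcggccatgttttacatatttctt
H1-2, chr6:26056471-26056590, minus strand: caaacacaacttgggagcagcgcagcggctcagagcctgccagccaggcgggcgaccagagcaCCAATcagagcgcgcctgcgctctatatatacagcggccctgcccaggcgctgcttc
In H2BC12 the octamer began 46 bases before this start. Over windows from 250 bases before to 50 after the start, of which RefSeq gave 57 for 53 of the genes, the octamer (ATTTGCAT or ATGCAAAT) was in 13 of 17 windows of H2B genes (76.5%), 9 of 13 of H2A (69.2%), 1 of 13 of H3 and none of H1 or H4, against 1.77% of all 35116 promoters. The 1 window under H3, given to H3C4, is the same stretch as that of the H2A gene H2AC7, and the other window of H3C4 held no octamer. Windows of neighbouring H2A and H2B genes overlap, so an octamer can count under both types. Those of H2AC6, H2AC7, H2AC8, H2AC11, H2AC14, H2AC17 and H2AC20 are such matches. They are the same bases as the octamers of H2BC4, H2BC7, H2BC8, H2BC11, H2BC14, H2BC17 and H2BC21, in that order. CCAAT was in every window of H1, H2A, H2B and H3 genes and in 1 of 9 of H4 (11.1%), against 34.6%, and TATAAA in 66.7% of the histone windows, against 11.5%. All 4 called genes had CCAAT, but so did H2AC18, H2AC19 and H2BC9. The windows of H2AC18, H2AC19 and H2BC5 held no octamer. A match describes the letters and not a bound site.

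**Figure D3:**
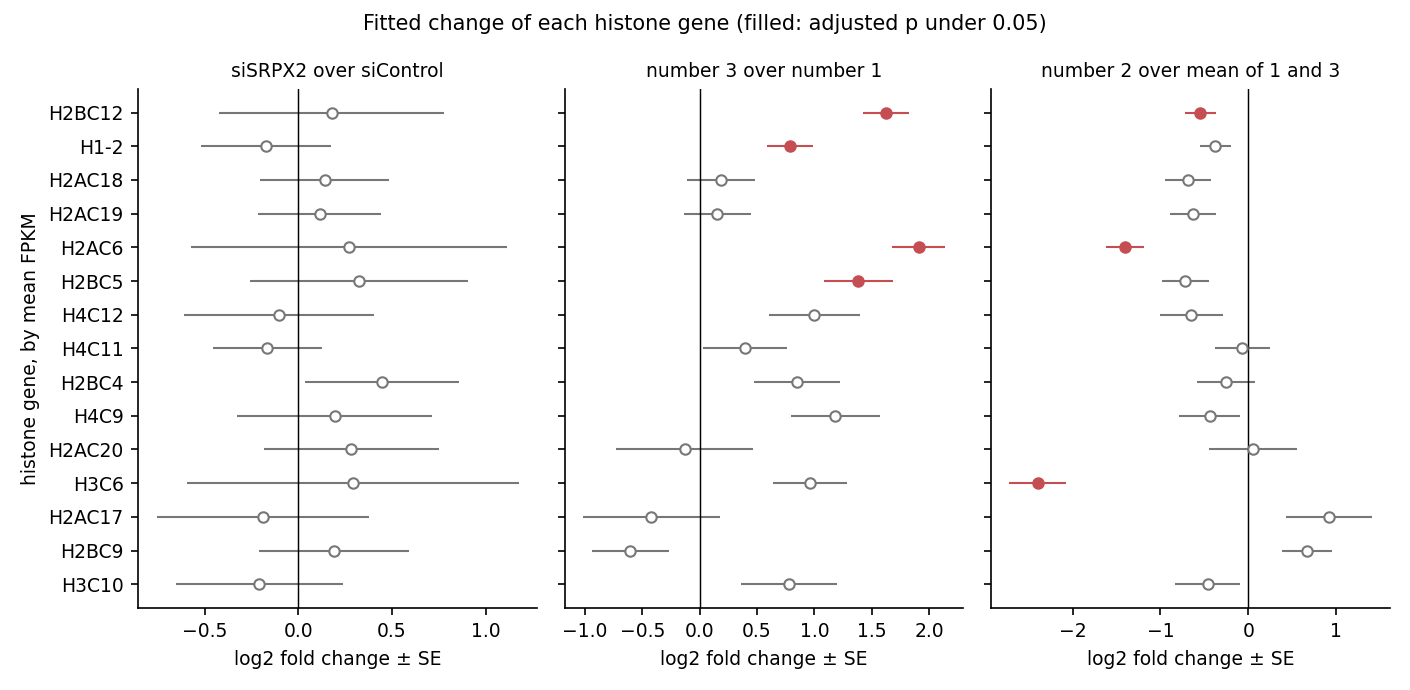
Log2 fold change with its SE of the 15 histone genes for siSRPX2 over siControl, number 3 over number 1, and number 2 over the mean of numbers 1 and 3; filled points have an adjusted p under 0.05. None is filled for the siRNA, 4 lie to the right in the middle panel (0.79 to 1.91), and 3 lie to the left in the last (-0.54 to -2.40).

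Number 2 stood apart from numbers 1 and 3 in S-phase genes, and no histone gene was called higher there. In this comparison 50.9% of all genes were called, 25.4% higher and 25.5% lower. All 39 listed S-phase genes were called higher (median 1.28 on the log2 scale). Of the 15 histone genes 3 were called, all lower, which is a smaller share than that of all genes. Values were lower for 12 and higher for 3, with a median of -0.46 against -0.01 over all genes tested. The high number 3 enters this contrast. Summed over the 58 genes, number 2 was at 0.999 times number 1 with siControl and 0.850 times with siSRPX2. Without a filter the median changed sign: of all 58 genes 30 had a higher and 28 a lower value, with a median of 0.10. In that fit 4 were called, all lower (H2AC6, H3C6, H4C14 and H4C15). The 15 genes kept their directions there, so the change came with the 43 genes short of the filter, which had few reads.

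H3C6 (HIST1H3E), the most abundant H3 gene, was at 2.17, 0.701 and 3.59 CPM in siControl 1 to 3 and at 2.29, 0.474 and 5.15 CPM in siSRPX2 1 to 3. Number 2 was the lowest in both groups, and the log2 fold change against the mean of numbers 1 and 3 was -2.40 (SE 0.32, adjusted p 0.0005). H2AC6 followed at -1.40 (SE 0.21, adjusted p 0.0009). Its number 2 was near number 1 in siControl (2.104 against 2.25 CPM) and below it in siSRPX2 (1.99 against 3.43). Number 3 was at 9.67 and 11.5 CPM, so the high number 3 enters this value. Both calls held under each of their 14 and 15 alternatives, with adjusted p of up to 0.0077 and 0.0098.

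H2BC12 was called at -0.54 (SE 0.18, adjusted p 0.0315), although number 2 was above number 1 in both groups. Its call was lost under 6 of 15 alternatives: without siControl 2 (adjusted p 0.169), siControl 3 (0.121), siSRPX2 1 (0.076) or siSRPX2 2 (0.114), with no filter (0.105) and without the siRNA term (0.0509). H2BC5 (-0.71), H2AC18 (-0.68) and H2AC19 (-0.63) missed the threshold at adjusted p of 0.0522, 0.0595 and 0.0772, and H2AC17 (0.92) and H2BC9 (0.67) had the highest values. Without siSRPX2 2, H2AC17 was called higher (1.73, adjusted p 0.0267). Number 2 was the lowest library of both groups in 4 of the 15 genes. H4C15 and H4C14, just short of the filter, had 28 and 28 reads in siControl 2 and 33 and 36 in siSRPX2 2, against 56 to 124 in the other 4 libraries.

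Listed genes with a part in histone supply and handling were set beside the histone genes. The lists are not limited to genes that act on histones alone. In number 2, 25.4% of all genes tested were called higher and 25.5% lower. Among 23 genes of histone mRNA 3′ end processing, 17 were called higher and 1 lower in number 2 (median 0.52), among them SLBP itself at 0.68 (SE 0.08), with 35.6, 58.9 and 26.5 FPKM in siControl and 42.2, 54.1 and 31.6 FPKM in siSRPX2. SLBP, which is on the S-phase list too, thus was highest in number 2 and lowest in number 3 in either group, and in number 3 against number 1 it was called lower (-0.47, SE 0.09, adjusted p 0.0138). Of 26 histone chaperones 20 were called higher and 1 lower (median 0.78), such as NASP, which carries H3 and H4, at 1.03 and DNAJC9 at 1.84. Of 16 decay genes 9 were called higher (median 0.29), among them ERI1, a nuclease that trims the stem-loop, at 1.16. Of 13 transcription regulators of histone genes 7 were called higher and 1 lower (median 0.23), among them CCNE2, a cyclin E, at 1.77.

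The replacement histones, whose mRNAs are polyadenylated and made outside S phase too for the most part, were compared in the same way. Of 10 tested 7 were called higher in number 2 and none lower, with a median of 0.54. Of all genes tested, 25.4% were called higher there and 25.5% lower. H2AX was at 26.8, 110 and 44.8 FPKM in siControl and 35.9, 96.1 and 52.1 FPKM in siSRPX2, and H2AZ1 at 105, 241 and 99.3 FPKM and 93.7, 236 and 100.8 FPKM. The 12 in the table summed to 1.62 and 1.63 times number 1 in number 2, the 39 S-phase genes to 2.99 and 2.13 times, and the 58 replication-dependent genes to 0.999 and 0.850 times. The summed FPKM of the listed RNAs without a tail ran from 17.5 to 21.0 in siControl and from 15.5 to 26.2 in siSRPX2. Of the 6 tested, 1 was called higher and 1 lower in number 2 and none in number 3 against 1, and of the 5 tested thyroid and epithelial markers 3 were called higher and 2 lower in number 2. Their part in the histone values was not tested.

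**Figure D4:**
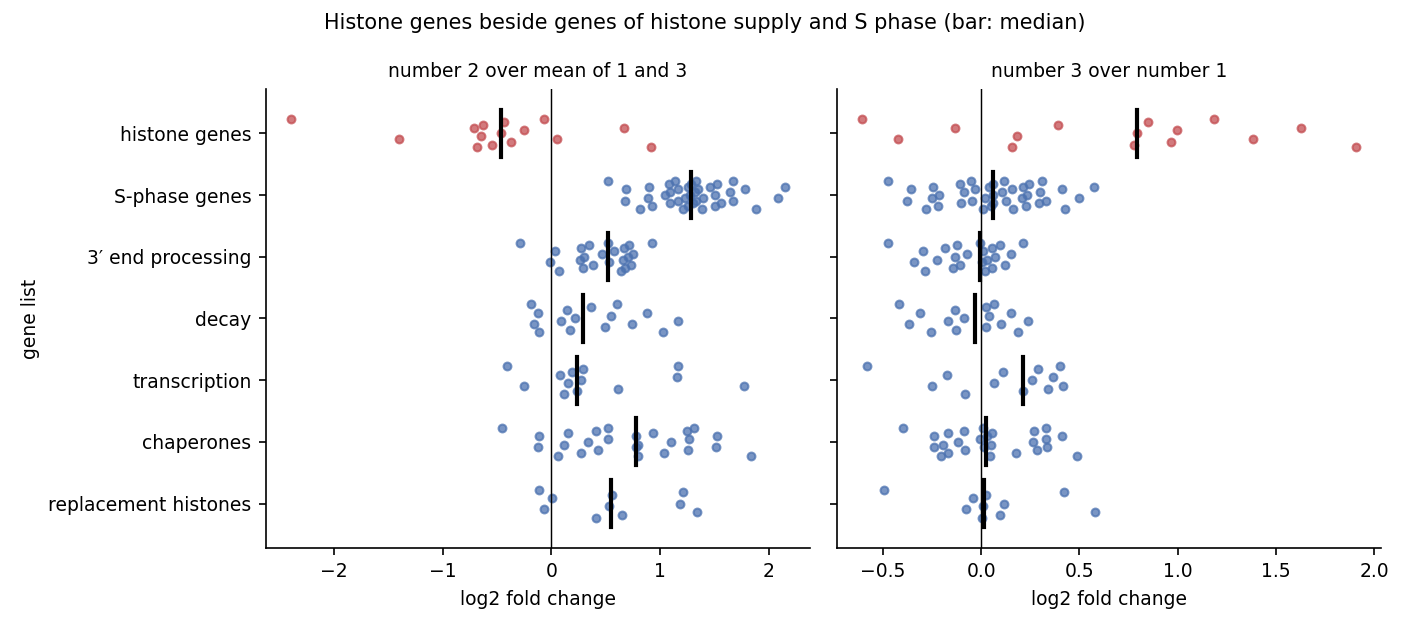
Log2 fold change of each tested gene in 7 lists (points) with the list's median (bar), for number 2 over the mean of numbers 1 and 3 and for number 3 over number 1. In the left panel the histone genes have a median of -0.46 and the S-phase genes of 1.28; in the right panel the medians are 0.79 and 0.06, and those of the other 5 lists lie between -0.03 and 0.21.

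Against the siRNA none of these lists had a gene called. S-phase genes had 35 values above 0 of 39 (median 0.09), and 37 of 39 with the block (median 0.18). The 3′ end processing genes had 11 of 23 above 0, the chaperones 15 of 26 and the replacement histones 3 of 10.

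The pattern between numbers was compared between long and short gene models, since a stem-loop histone mRNA is short and has no intron. A model that spans at least 1000 bases of the genome, introns included, was called long. A long model thus need not mean a long mRNA. H2BC5 spans 13204 bases, while its longest GENCODE 29 transcript has 789. There were 24 long models (the shortest 1196 bases) and 34 short ones (the longest 797 bases), and 7 and 8 of them passed the filter. The long ones held 52.5% of the histone reads but 27.3% of the FPKM. Their summed CPM in number 3 was 2.04 and 1.81 times number 1, against 1.83 and 1.75 times for the short ones, so both sums were higher. In number 2 the long ones were at 0.947 and 0.701 times number 1 and the short ones at 1.05 and 1.05 times. Per gene, the median log2 fold change in number 2 was -0.46 for long and for short models, and in number 3 against 1 it was 0.97 for the 7 long and 0.29 for the 8 short models tested. H2AC6 and H3C6, called lower in number 2, have long models that span 14972 and 3275 bases. H2BC9, also long with a span of 2060 bases, had values above 0. Where in a model the reads fell is not held by the table.

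Neighbouring genes and pseudogenes bear on some members. Of the 58 genes 13 overlap another gene and 7 of these overlap one on the same strand, such as H2BC5 with LARP1P1 (0.0412 FPKM) and H2AC17 with H3C12 (0.0181 FPKM). The pseudogene rows that the rule left out held 930 to 1276 reads a library for H2BC20P and 313 to 475 for H2BC19P, and H2BC20P had more reads than any of the 58 genes in every library. H2BC19P had 475 and 458 reads in number 3 and 313 to 420 in the other 4 libraries, whereas H2BC20P had 959 and 949 in number 3 and 967 and 1276 in number 1. These reads are not scaled to library depth. For H2BC19P the 420 were from siControl 1, with 63824315 reads in all, and the 475 from siControl 3, with 70042541. The unscaled reads thus do not show a higher level in number 3.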

How the data were processed

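RNA of 6 TPC1 samples was sequenced, and 1 table of 31348 genes was used, with no unmapped sample columns. For each library it holds the read counts and the FPKM as deposited. The authors made the FPKM with StringTie (2.1.6) and the R package ballgown, and DESeq2 and edgeR stand in the submitters' processing notes. The sources used here do not give the aligner, the counting tool, its strand setting, the RNA selection or the annotation release. The 56 members found in GENCODE 29 lay at or near their position there, so coordinates are on GRCh38. The members and the gene lists were chosen with earlier results of these data known.

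Counts were tested with edgeR 4.0.16 (TMM, glmQLFit and glmQLFTest, R 4.3.3) over the genes whose FPKM averaged 0.5 or more, with Benjamini-Hochberg adjustment over all genes tested and a threshold of 0.05. siSRPX2 was compared with siControl without a block. The numbers were compared with siRNA and number as additive terms. SE is the absolute log2 fold change divided by the square root of F. CPM used TMM library sizes. Totals were 63824315 to 75828542 reads. Self-tests used simulated counts.

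Same-numbered libraries deviated together from the group means (r = 0.640, 0.822 and 0.705; highest between numbers 0.117), so numbers were taken as pairs. The pairs rest on the labels' numbers and these values. A gene's deviations within a group cancel out, so the low r between numbers partly follows from the high r within them. No libraries of a group agreed within sampling noise.

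Named were the 12 most abundant members, the first of each type, those called and the 6 of smallest p per contrast, and for each list the 3 most abundant and the 3 of smallest p. The sequence forms, H2AC11, H4C14, H4C15, the pseudogenes and overlapping genes were named after their values were seen, as were members of the marker and tailless RNA lists. Alternatives were other scalings, filters and tools (DESeq2 1.42.0, limma-trend 3.58.1 on log2(FPKM + 1) and + 0.1), the block, no siRNA term and leaving out libraries; the block in DESeq2 was added after the data were seen. Figures used matplotlib 3.10.9.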

Additional observations from a re-analysis of the deposited data

How the results depend on the processing

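No alternative gave a histone gene called for siSRPX2 against siControl. With the replicate block, the median log2 fold change of the 15 genes was 0.13, and the block changed the call of no histone gene; the block in DESeq2 was added after the data were seen. Without the block, leaving out 1 library moved this median between -0.32 and 0.29 and the ratio of summed CPM between 0.83 and 1.42. Each such omission leaves a replicate number without its pair. These ranges, and those per gene for the siRNA below, thus also carry the difference between numbers. For number 2 against the mean of numbers 1 and 3, 5 histone genes were called after upper-quartile scaling, 5 (of 31 tested) with filterByExpr, 5 (of 9) at a mean FPKM of at least 1 and 7 with limma-trend at either pseudocount. Here the median was 0.10 without a filter, -0.64 at a mean FPKM of at least 1, and -0.26 and -0.34 with limma-trend on log2(FPKM + 1) and log2(FPKM + 0.1). For number 3 against number 1, 2 were called without a filter and 2 to 6 when 1 library was left out, and the median was 0.49 with limma-trend on log2(FPKM + 1) and 0.58 to 0.84 when 1 library was left out. Among all genes, 6778 of 13317 were called with the filter and 5645 of 31348 without it for number 2, and 2145 and 396 for number 3 against 1. The cause of these differences was not tested.

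Signs of uncalled values turned as follows. For the siRNA, H2AC17 was at 0.054 with limma-trend on log2(FPKM + 0.1) and 0.037 with the block in DESeq2, and H4C11 in number 2 at 0.0097 and 0.019 with limma-trend. Leaving out 1 library gave, for the siRNA, ranges of -0.29 to 0.96 for H2BC5, -0.79 to 1.37 for H2AC6, -0.015 to 0.65 for H2BC4, -0.48 to 0.14 for H1-2, -0.41 to 0.95 for H2BC12, -0.079 to 0.35 for H2AC18, -0.096 to 0.29 for H2AC19, -0.69 to 0.22 for H4C12, -0.64 to 0.88 for H3C6, -0.11 to 0.48 for H2BC9, -0.52 to 0.48 for H4C9, -0.49 to 0.65 for H2AC17 and -0.49 to 0.26 for H3C10. For number 2 it gave -0.66 to 0.13 for H2BC4, -0.33 to 0.61 for H2AC20, -0.94 to 0.0095 for H4C9, -0.031 to 1.73 for H2AC17 and -1.03 to 0.049 for H3C10. For number 3 against 1 it gave -1.05 to 0.84 for H2AC20 and -1.003 to 0.37 for H2AC17.

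With 3 libraries a group that differ between numbers, and 2 libraries a number, these data limit what a test of a histone gene can show. Members short of the filter had at most 124 reads in a library. Where 1 library is left out of a number, the remaining one is assumed to vary like the others.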
